A study of Anopheles gambiae with 15 samples.

Results

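The gastric caeca are blind pouches that open at the front of the midgut of a mosquito larva. Of 16884 mosquito probe sets on the array used here, 180 had their highest level among 4 gut sections in the caeca, set apart from the next section by the widest gap in their profile. They were chosen by these gut values themselves: the 3 arrays of each section were averaged, the 4 means were sorted, and a probe set was taken when the largest step between neighbouring means was at least 1 log2 unit and lay between the caeca at the top and the second section. A difference of 1 on the log2 scale is 2-fold. The lead of the caeca over the other sections is therefore a description of how these probe sets were picked and carries no test. The whole-larva arrays took no part in the choice.

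The caeca take up and secrete ions and water, help to set the composition of the larval gut fluid, and are counted among the sites where digestive enzymes are released and nutrients absorbed. The anterior midgut behind them is known for its strongly alkaline lumen, and the posterior midgut for digestion and absorption at a lower pH. The Malpighian tubules, which enter at the front of the hindgut, are the excretory organs of insects. The probe set IDs of this array are not paired with genes in the files, and 0 of the 16884 IDs matched a gene or accession in the RefSeq table of 15165 genes. Gene names, roles and pathways are thus not used here, no cell type marker could be set against the section labels, and the probe sets are called by their IDs.

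Total RNA came from 4th instar larvae of the G3 strain of Anopheles gambiae, a malaria vector, on 15 arrays with 3 for each of 5 groups. The groups were gastric caeca, anterior midgut, posterior midgut, hindgut together with the Malpighian tubules, and whole larvae. For a gut array, RNA was pooled from the sections of 1000 guts, and for a whole-larva array from 200 larvae. The labels speak of 3 biological repeats but name no larval batch, so p-values measure the spread between these pooled samples. Levels are RMA values on the log2 scale, in which background correction and normalization pull dim probe sets together, which understates the folds of the dim ones. In pooled tissue, fewer cells of a type and less RNA per cell cannot be told apart. The whole larva contains the caeca as well, and the values in whole larvae include their RNA.

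Arrays of 1 section were alike across all tested probe sets, with r of 0.979 to 0.984 in caeca, 0.977 to 0.982 in posterior midgut and 0.981 to 0.987 in hindgut. Anterior midgut arrays, at r of 0.871 to 0.963, and whole-larva arrays, at 0.927 to 0.947, differed more. Anterior midgut array 2 stood apart with the narrowest range of levels, an SD of 1.4 log2 units over probe sets, against 1.59 to 1.85 on the other arrays. The rule left 178 probe sets without that array, 172 of them among the 180. Leaving out each of the 12 gut arrays in turn gave 171 to 220 probe sets, the most without caeca array 1, and between 162 and 178 of the 180 were chosen again.

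Across the 180 probe sets the caeca level ran from 5.24 to 14.33 with a median of 8.66. The medians were 5.76 for the anterior midgut, 5.60 for the posterior midgut, 5.86 for the hindgut and 7.61 for whole larvae. Over all tested probe sets the median lay between 5.02 and 5.15 in every section, and the upper quartile between 5.94 and 6.36. The 180 were thus far above most probe sets in caeca, and in each other section their median lay above the median and below the upper quartile of all. The lead of the caeca over the second section had a median of 1.86 log2 units, 3.64-fold, with the middle part of the distribution between 1.34 and 3.35. It was at least 2 log2 units in 82 probe sets, at least 3 in 53, at least 5 in 15 and at least 7 in 3. In 158 of the 180 all 3 caeca arrays lay above all 9 arrays of the other sections, where 2.32% of all tested probe sets did so, and 121 passed limma's threshold against each other section, where 0.805% of all did. Both counts restate the rule.

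**Figure D1:**
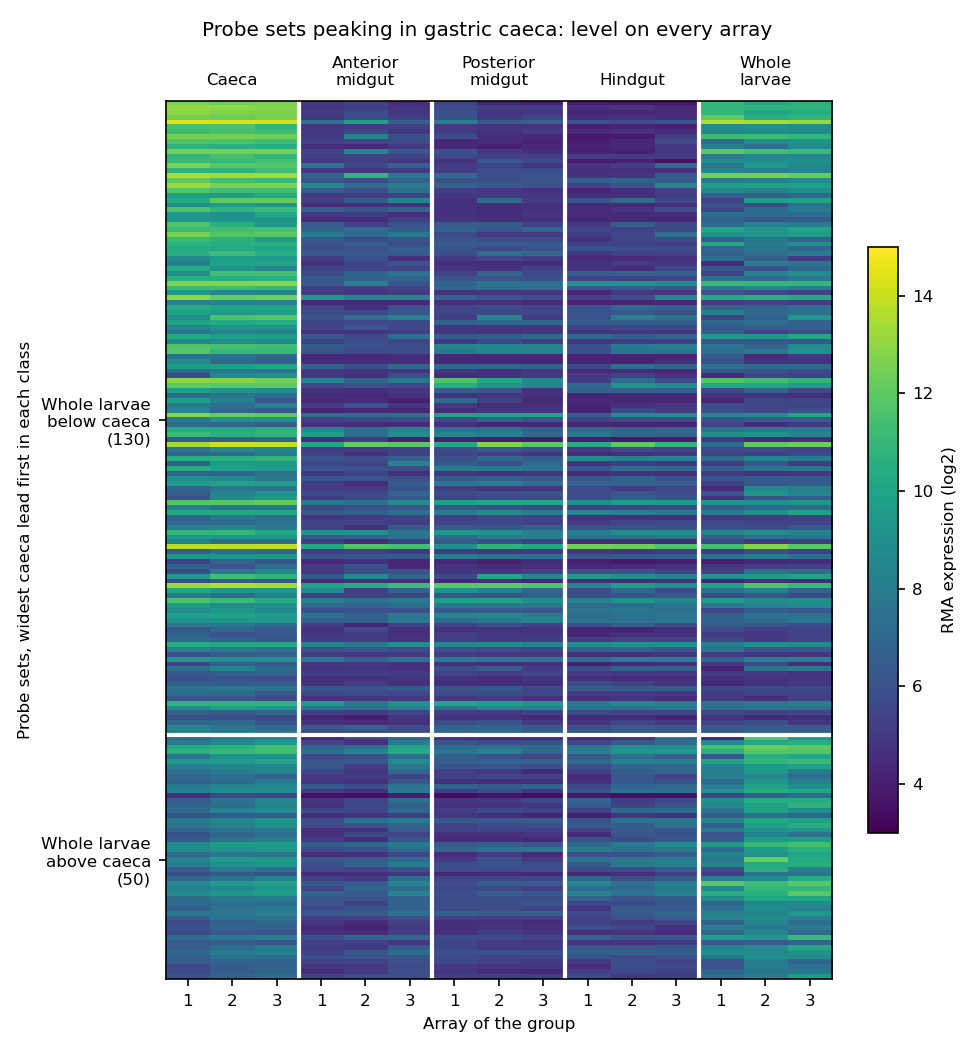
RMA level (log2, colour) of the 180 caeca-peaking probe sets (rows) on all 15 arrays (columns, in 5 groups of 3), with the 130 probe sets whose whole-larva mean lies below their caeca mean above the white line and the other 50 below it. The caeca columns are brighter than those of the other 3 sections in both blocks, and in the lower block the whole-larva columns are brighter still, least so on whole-larva array 1.

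The widest lead was that of Ag.3L.687.0_CDS_at. It read 12.59, 12.45 and 12.61 on the caeca arrays, against 4.99, 5.44 and 4.51 for the anterior midgut, 5.41, 4.26 and 4.08 for the posterior midgut and 3.97, 3.79 and 3.79 for the hindgut. The 3 caeca arrays lay within 0.16 of each other and more than 7 log2 units above the highest array of any other section. Ag.3L.2015.0_CDS_at read 13.06, 12.94 and 12.72 in caeca, against 4.81, 5.13 and 4.85 for the anterior midgut, 5.65, 5.28 and 5.15 for the posterior midgut and 4.63, 4.79 and 4.38 for the hindgut. Leads over the second section were 7.57 and 7.55 log2 units, or 190- and 187-fold. Both second sections lay below a background taken from the 95th percentile of probe sets whose IDs start with a number (5.31 to 5.83 in the 4 sections), so these folds are not exact. In whole larvae Ag.3L.687.0_CDS_at read 11.03, 10.24 and 10.55 and Ag.3L.2015.0_CDS_at 10.89, 10.87 and 10.83, below every caeca array of the same probe set and far above every array of the other sections.

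At the other end, Ag.X.270.0_CDS_a_at entered with a lead of 1.0009 log2 units (6.73 ± 0.61 in caeca, 5.73 ± 0.34 in anterior midgut; SD, n = 3 each) and Ag.2R.2451.0_CDS_at with 1.004 (6.39 ± 0.53 in caeca, 5.39 ± 0.20 in hindgut). Just outside stood Ag.3L.191.0_CDS_at at 0.9847 (7.11 ± 0.47 in caeca, 6.13 ± 0.24 in hindgut) and Ag.2L.219.0_CDS_s_at at 0.9841 (8.79 ± 0.33 in caeca, 7.81 ± 0.40 in posterior midgut). In all 4 the distance from the threshold was far smaller than the SD of the caeca arrays. Between 1 and 1.2 log2 units there were 24 probe sets, and between 0.8 and 1 another 37 had the same shape without reaching the threshold.

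The second section was about evenly divided. It was the anterior midgut for 62 probe sets, the posterior midgut for 58 and the hindgut for 60. The lead differed in size with it: the median was 3.20 log2 units (9.22-fold) where the anterior midgut came second, 1.88 (3.69-fold) where the posterior midgut did and 1.39 (2.62-fold) where the hindgut did. The largest lead in the hindgut-second set was 4.87, against 7.57 and 7.55 in the anterior- and posterior-second sets. In 52 probe sets no section other than the caeca exceeded the number-led background, so their second section is a ranking of dim values. That background was highest in anterior midgut, at 5.83. Its part in the split and in the size of the leads was not tested. Among themselves the 3 other sections were close. The highest and lowest of them differed by a median of 0.79 log2 units, by less than 1 in 111 probe sets and by more than 2 in 19, within the bound that the rule sets on these steps.

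**Figure D2:**
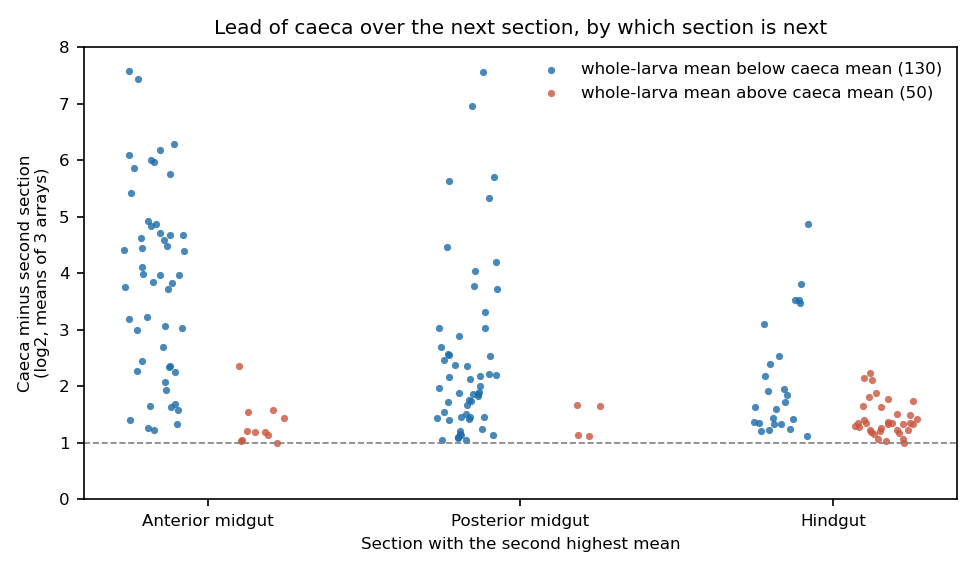
Lead of the caeca over the second section (log2, means of 3 arrays, vertical axis) for each of the 180 probe sets, by which section came second (horizontal axis), coloured by whether the whole-larva mean lies below (blue, 130) or above (red, 50) the caeca mean. The dashed line is the rule's threshold of 1; leads of over 5 occur with the anterior or posterior midgut second, and the red points lie between 1 and 2.36 and mostly over the hindgut.

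Measured against the background from number-led IDs, 179 of the 180 exceeded it in caeca, 86 in the anterior and 92 in the posterior midgut, 115 in the hindgut and 158 in whole larvae. Of all tested probe sets, 41.2% exceeded it in caeca, 27.7% in the anterior and 35.6% in the posterior midgut, 42.6% in the hindgut and 45.1% in whole larvae. This background was set for each group and was highest in anterior midgut, at 5.83. In 52 probe sets no section other than the caeca exceeded it. Their caeca level had a median of 7.44 and reached 12.91, and 32 of them were above background in whole larvae. In 71 probe sets all 3 other sections exceeded it too, with a median of 9.81 in caeca and a median lead of 1.81 log2 units. By this background, a lead of the caeca was thus found both over sections with no signal above it and over sections that exceeded it. The 95th percentile of the IDs starting with Pf gave a lower background, 4.0 to 4.1 in the 4 sections. All 180 exceeded that one in caeca. So did 175 for the hindgut, 178 for the posterior and 179 for the anterior midgut. Which sections count as without signal therefore depends on the background chosen.

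The lead was next read from arrays that had not chosen the probe sets. The rule was applied to the arrays of 2 replicate numbers, and the lead of the caeca over the highest other section was taken from the 4 gut arrays of the number left out. With number 2 left out, 183 probe sets were chosen, and the held-out caeca array exceeded the other 3 sections in 172 of them (94%) and by at least 1 log2 unit in 150 (82%). With number 3 left out, 167 were chosen, of which 165 (98.8%) led and 134 (80.2%) led by at least 1. With number 1 left out, 229 were chosen, of which 192 (83.8%) led and 139 (60.7%) led by at least 1. Among all tested probe sets the single caeca array led in 18.1%, 12.7% and 16.3% for numbers 1, 2 and 3, and by at least 1 log2 unit in 1.22%, 1.61% and 1.58%. The median lead was 1.34, 1.71 and 1.75 log2 units in the held-out arrays of numbers 1, 2 and 3, against 1.65, 1.78 and 1.83 in the arrays that chose the probe sets. Of the 90 that fell short of 1 log2 unit on the arrays of number 1, 58 had a whole-larva mean above their caeca mean on the other arrays, a class with 82 of the 229. The 3 lists differ from the 180, which all 12 gut arrays chose: 170 of the 229, 157 of the 183 and 155 of the 167 were among them. The held-out values come from single arrays, and no test was run on them.

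**Figure D3:**
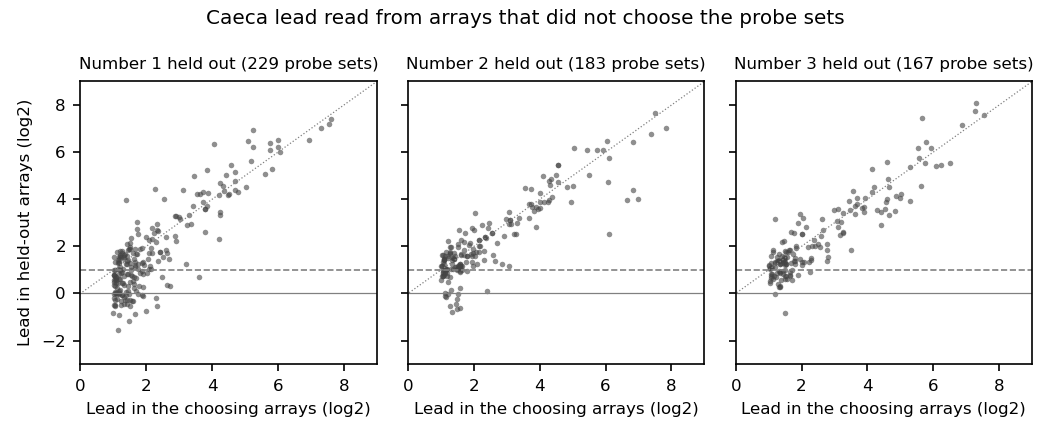
Lead of the caeca in the arrays of the replicate number left out (log2, vertical axis) against the lead in the arrays of the other 2 numbers, which chose the probe sets (log2, horizontal axis), 1 panel for each number left out and 1 point for each chosen probe set. The dotted line marks equal leads and the dashed line a held-out lead of 1; 90 of the 229 points lie below the dashed line with number 1 held out, 33 of 183 with number 2 and 33 of 167 with number 3.

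Set against whole larvae, the 180 probe sets fell into 2 classes. The caeca mean was above the whole-larva mean in 130 and below it in 50, and few lay near equality: 9 differed by less than 0.5 log2 units either way, whereas most of the tested probe sets lay in that range. In the 130 the caeca exceeded whole larvae by a median of 2.14 log2 units (4.42-fold), with the middle part between 1.55 and 2.80. In the 50 the difference, caeca minus whole larvae, had a median of -1.03, a whole-larva level 2.05-fold higher. This division was made after the values were seen, so the classes are described and not tested. The number with whole larvae above caeca was 43 to 54 when each caeca or whole-larva array was left out in turn. Of all 2298 tested probe sets with their highest section mean in caeca, 759 (33%) had a whole-larva mean above it.

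**Figure D4:**
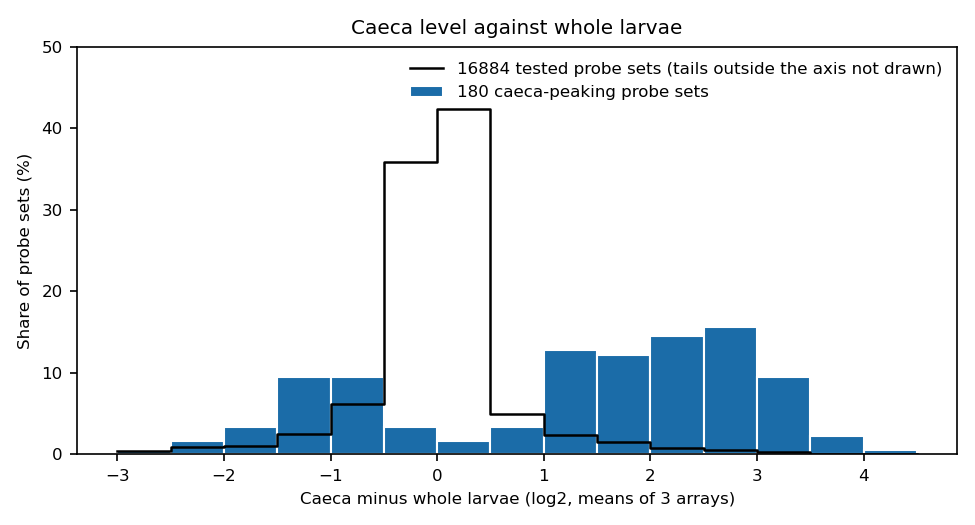
Share of probe sets (%, vertical axis) by the caeca minus whole-larva difference in steps of 0.5 (log2, means of 3 arrays, horizontal axis), for the 180 caeca-peaking probe sets (bars) and all 16884 tested probe sets (line). The bars form 2 groups with a low point between 0 and 0.5, where 3 of the 180 lie and where the line peaks.

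By limma, at an adjusted p under 0.05 and at least 2-fold, 111 of the 180 were higher in caeca than in whole larvae and 12 were lower, while 57 did not pass. Over all tested probe sets 4.24% were higher and 3.9% lower. The caeca arrays enter both this comparison and the rule, which lifts the first count, and nothing is read from it. The count of 12 moved with single arrays: it fell to 4 without caeca array 1 and rose to 24 without whole-larva array 1. Leaving out each other caeca or whole-larva array gave 8 to 13. Of the 121 probe sets that passed against each other section, 101 were higher in caeca than in whole larvae, 4 were lower and 16 did not pass. These 121 were picked by high levels on the same caeca arrays, so this count is a description too.

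The largest rise over whole larvae was in Ag.2L.1688.1_CDS_at, which read 11.73, 10.92 and 11.10 in caeca, against 5.52, 7.19 and 7.93 in whole larvae. The 2 groups did not overlap, and the whole-larva arrays spread over more than 2 log2 units. It was 20.7-fold higher in caeca (log2 difference 4.37 ± 0.51, SE; limma, adjusted p = 8.9e-05), or 12.9-fold without whole-larva array 1. The other probe set with the same arm and number in its ID did not share this profile. Its caeca mean was 5.47, the caeca were not its highest section, and the pair had r of -0.01 over the arrays. Ag.3L.1068.0_CDS_at read 9.60, 9.91 and 9.69 in caeca, against 5.25, 6.21 and 6.38 in whole larvae, 13.8-fold higher (3.79 ± 0.44; limma, adjusted p = 8.5e-05). Its second section, the posterior midgut, read 7.87, 8.16 and 7.30 and so lay above all 3 whole-larva arrays.

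The largest falls were in Ag.2R.489.0_CDS_at and Ag.2R.357.0_CDS_a_at, whose level was highest in whole larvae and, among the sections, in caeca. Ag.2R.489.0_CDS_at read 6.35, 7.56 and 8.56 in caeca, against 9.05, 10.49 and 10.45 in whole larvae, a log2 difference of -2.51 ± 0.68 (SE; limma, adjusted p = 0.029). Array 1 was the lowest in both groups. The call did not hold in a fit of only these 2 groups, nor in 4 of 6 fits without 1 of these arrays, among them the fit without caeca array 1, which gave -1.94 (limma, adjusted p = 0.13). Ag.2R.357.0_CDS_a_at read 8.60, 9.62 and 9.91 in caeca, against 11.92, 11.23 and 11.95 in whole larvae, a difference of -2.33 ± 0.53 (limma, adjusted p = 0.012), and -1.94 without caeca array 1 (adjusted p = 0.06).

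The 130 and the 50 differed in how their arrays varied. The rule and the division used the group means of these same arrays, though not the order of arrays within a group. The pattern is therefore a description and not independent of the choice. Without caeca array 1 the rule gave 220 probe sets instead of 180. Among the 50, caeca array 1 was the lowest of the 3 caeca arrays in 47 (94%), and whole-larva array 1 the lowest of the 3 whole-larva arrays in 43 (86%). Anterior midgut array 3 was the highest of its group in 47. Both array 1 statements held together in 41 of the 50 (82%), in 27 of the 130 (20.8%) and in 14.8% of all tested probe sets. Together with the anterior midgut statement they held in 39 of the 50 (78%), in 16 of the 130 (12.3%) and in 7.46% of all. Among the other 709 probe sets with caeca as the top section and whole larvae above caeca, caeca array 1 was the lowest in 39.9%, whole-larva array 1 was the lowest in 31.7%, and anterior midgut array 3 was the highest in 58.3%, against 39.6% of all tested probe sets.

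In size, the 50 deviated from their caeca mean by a median of -0.58 log2 units on array 1, 0.11 on array 2 and 0.44 on array 3. In whole larvae the medians were -0.92, 0.48 and 0.41, and in anterior midgut -0.42, -0.27 and 0.77. In posterior midgut they were -0.05, 0.05 and -0.05, and in hindgut -0.41, 0.01 and 0.30. The same arrays gave medians between -0.11 and 0.09 for the 130 in all 5 groups, and between -0.02 and 0.01 for all tested probe sets. Within each of caeca, anterior midgut and whole larvae, most of the 50 thus shifted the same way as each other. In hindgut the medians rose from array 1 to array 3 as in caeca, but the probe sets were more mixed. Array 1 of the hindgut was the lowest in 31 of the 50 and the highest in 13, against 31 and 1 for anterior midgut array 1. In posterior midgut the median SD of the 50 was 0.17, against 0.55 in caeca, 0.74 in anterior midgut, 0.58 in hindgut and 0.89 in whole larvae. What differed between the pools was not tested.

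**Figure D5:**
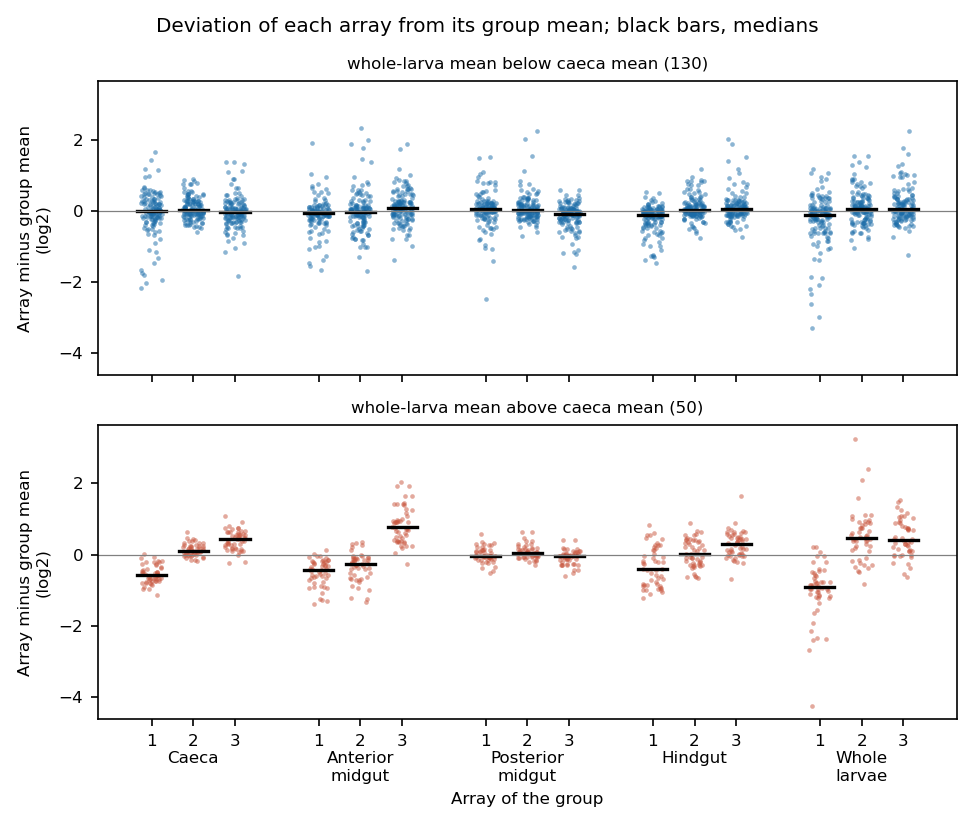
Deviation of each array from the mean of its group (log2, vertical axis) for each probe set (points) with the median (black bar), by array and group (horizontal axis), for the 130 probe sets with whole larvae below caeca (top) and the 50 with whole larvae above caeca (bottom). In the bottom panel the points of caeca array 1 and whole-larva array 1 lie low, with medians of -0.58 and -0.92, and those of anterior midgut array 3 lie high at 0.77, while the medians of the top panel stay between -0.11 and 0.09.

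The 2 classes also differed in level, lead and second section. The division compares the caeca and whole-larva means, so differences in these levels follow in part from it. The lead is measured from the same caeca mean. The 50 had a median of 7.60 in caeca, 6.18 in hindgut, 5.92 and 5.42 in anterior and posterior midgut and 8.84 in whole larvae. The 130 had 9.40 in caeca, 5.45 in hindgut, 5.63 and 5.65 in anterior and posterior midgut and 7.04 in whole larvae. Leads in the 50 ran up to 2.36 with a median of 1.33 (2.51-fold), and in the 130 up to 7.57 with a median of 2.37 (5.16-fold). All 53 leads of at least 3 log2 units were among the 130. The hindgut came second in 35 of the 50 and in 25 of the 130, and the posterior midgut in 4 of the 50 and 54 of the 130. The hindgut mean was above the posterior midgut mean in 43 of the 50, in 42 of the 130 and in 7108 of all 16884 tested.

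The rule bounds the differences among the 3 other sections but gives them no direction, and limma was run on them. The same arrays entered the rule, so the counts and p-values among these sections describe probe sets chosen by these values. The shares over all tested probe sets carry no such bound. In posterior against anterior midgut, 12 of the 180 were higher (6.67%) and 3 lower (1.67%), where 2.74% and 0.492% of all tested probe sets were, and the difference had a median of -0.12, against -0.03 over all. The 180 are brighter than most probe sets, and the background shares are not matched for this. Several of the 12 share an arm and number in their IDs, so they are not independent readings. With the values quantile normalized again the counts were 11 and 7. The higher count was 20 without anterior midgut array 3. The lower count was 1 without anterior midgut array 1 and 5 without array 3, and it was 0 without posterior midgut array 2 or 3, where 8 and 6 passed limma at an unadjusted p under 0.05.

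Ag.3L.1911.1_a_at had the largest rise, at 10.50, 9.36 and 8.52 in posterior midgut, against 5.69, 6.09 and 5.62 in anterior midgut, while the caeca read 12.06, 11.94 and 12.03. It was 12.6-fold higher (log2 difference 3.66 ± 0.50, SE; limma, adjusted p = 0.00058), from an anterior midgut level below the number-led background. Ag.3R.191.0_CDS_a_at read 10.03, 9.86 and 10.02 in posterior midgut, against 7.37, 7.18 and 7.42 in anterior midgut, 6.26-fold higher (2.65 ± 0.52; limma, adjusted p = 0.0092). With the values quantile normalized again the difference was 2.02 log2 units and the call was lost. Its caeca arrays read 12.80, 12.21 and 12.01, so the order of these 3 sections was caeca, posterior and anterior midgut on every array.

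In the other direction, Ag.3R.1992.0_CDS_at read 5.75, 5.01 and 5.04 in posterior midgut, against 8.01, 7.09 and 7.84 in anterior midgut and 12.58, 11.72 and 11.87 in caeca. It was 5.2-fold lower in posterior midgut (-2.38 ± 0.49; limma, adjusted p = 0.012), with adjusted p of 0.061, 0.068 and 0.05 in the fits without anterior midgut array 1 or posterior midgut array 2 or 3. Ag.2L.1688.1_CDS_at, also the probe set with the largest rise over whole larvae, read 4.70, 4.57 and 4.60 in posterior midgut, against 6.72, 6.20 and 6.98 in anterior midgut (-2.01 ± 0.51; limma, adjusted p = 0.045). This call was lost in 5 of 6 fits without 1 of these arrays, at adjusted p of up to 0.16, and with the arrays centred on their medians. Both posterior midgut levels lay below the number-led background.

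In hindgut against anterior midgut, 12 of the 180 were higher (6.67%) and 16 lower (8.89%), where 11.9% and 3.16% of all tested probe sets were. The median difference was -0.03, against -0.10 over all. Quantile normalization of the values gave 5 higher and 20 lower. The higher count was 7 without anterior midgut array 2, 21 without array 3 and 6 without hindgut array 2, and the lower count was 9 without hindgut array 1. A technical measure moved with the hindgut: the 3' minus 5' level of the mosquito actin and Gapdh control probe sets was 0.08 ± 0.26 log2 units in hindgut (SD, n = 3) and averaged 0.83 to 0.96 in the other groups. Its part in these differences was not tested.

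Ag.3L.1911.1_a_at was again among the highest, at 7.09, 9.15 and 8.74 in hindgut, 5.77-fold above anterior midgut (2.53 ± 0.50; limma, adjusted p = 0.0021) and 8.86-fold without hindgut array 1. Ag.X.633.0_CDS_at read 8.74, 8.31 and 8.30 in hindgut, against 6.13, 5.83 and 6.69 in anterior midgut, 4.71-fold higher (2.23 ± 0.34; limma, adjusted p = 0.00032). Its caeca arrays, at 10.48, 10.58 and 10.84, lay above the hindgut by about the distance that the hindgut lay above the anterior midgut.

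The 2 largest falls in hindgut were read by a pair of probe sets with the same ID stem, Ag.2L.1532.0_CDS_at and Ag.2L.1532.0_CDS_a_at. Ag.2L.1532.0_CDS_at read 4.74, 4.82 and 6.54 in hindgut, against 6.87, 10.85 and 7.83 in anterior midgut and 13.53, 13.38 and 13.40 in caeca. The anterior midgut arrays spread over about 4 log2 units, with the narrow-range array 2 the highest. The probe set was 8.88-fold lower in hindgut (-3.15 ± 0.79; limma, adjusted p = 0.0082), 3.95-fold without anterior midgut array 2, 15.7-fold without array 1 and 13.3-fold without hindgut array 3. Ag.2L.1532.0_CDS_a_at followed it, at 4.07, 4.05 and 5.05 in hindgut, against 5.39, 8.51 and 6.37 in anterior midgut, 5.18-fold lower in hindgut (-2.37 ± 0.62; limma, adjusted p = 0.010). Its hindgut mean lay below the number-led background, so this fold is not exact, and it was 2.82-fold without anterior midgut array 2 and 8.32-fold without array 1. Both calls were lost in a fit of only these 2 groups and by the methods' t-test, even unadjusted, with adjusted p of up to 0.18 and 0.17 over the alternatives. In whole larvae the pair read 11.08 to 12.59, within 2 log2 units of the caeca.

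In hindgut against posterior midgut, 11 were higher (6.11%) and 10 lower (5.56%), where 7.54% and 2.45% of all tested probe sets were. The median difference was -0.04, against -0.07 over all. Quantile normalization gave 3 higher and 17 lower. The higher count was 3 without posterior midgut array 1, 4 without array 3, and 7 and 6 without hindgut array 2 and 3. Ag.3L.1371.0_CDS_at had the largest fall, at 5.15, 7.20 and 5.72 in hindgut, against 11.66, 10.19 and 8.58 in posterior midgut, with 12.92, 12.81 and 12.36 in caeca. It was 17.3-fold lower (-4.12 ± 0.68; limma, adjusted p = 0.00084), 10.3-fold without posterior midgut array 1, 29.8-fold without array 3 and 26.1-fold without hindgut array 2.

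Ag.3R.2394.0_CDS_a_at read 8.49, 9.73 and 9.21 in hindgut, against 11.88, 12.00 and 11.74 in posterior midgut and 13.22, 13.60 and 13.43 in caeca, 6.63-fold lower in hindgut (-2.73 ± 0.42; limma, adjusted p = 0.00049). Among those higher in hindgut, Ag.2R.3707.1_a_at was bright in all sections, at 12.40, 12.25 and 11.63 in hindgut, against 8.95, 10.76 and 10.26 in posterior midgut and 13.73, 13.82 and 13.87 in caeca. It was 4.29-fold higher (2.10 ± 0.48; limma, adjusted p = 0.0075). Ag.2R.280.0_CDS_a_at read 7.64, 7.75 and 8.17 in hindgut, against 5.05, 6.02 and 5.11 in posterior midgut, 5.5-fold higher (2.46 ± 0.80; limma, adjusted p = 0.044). The posterior midgut mean lay below the number-led background, so this fold is not exact. The call was lost after quantile normalization and in each of the 6 fits without 1 of these arrays. It held in a fit of only these 2 groups and by the methods' t-test, also after Benjamini-Hochberg adjustment. The SE of 0.80 rests on a spread estimated over all 5 groups, whole larvae among them. In whole larvae Ag.2R.280.0_CDS_a_at read 7.73, 12.19 and 10.36, the widest spread of the probe sets named here, and it belongs to the 50 with whole larvae above caeca.

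Probe sets that share the arm and number of their IDs gave repeated readings of some profiles. The sources used here hold no key to these ID fields. The 180 carried 167 combinations of arm and number, of which 9 held 2 of them and 2 held 3. The 15 pairs within these combinations had a median r of 0.98 over the 15 arrays, none of them under 0.73. For 17 further pairs only 1 partner was among the 180. In 4 of these the other probe set also led in caeca by at least 1 log2 unit, in 10 it led by less, and in 3 the caeca were not its highest section, with r from -0.13 to 0.72. In 4 pairs of 1 stem where one ID holds CDS and the other UTR, both were among the 180, and in another 4 only 1 was, with a median lead of 0.77 in the other probe set, which had the caeca on top in all 4. The correlations are over arrays of 5 groups and share the group means that chose the probe sets.

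By the arm field, 44 of the 180 carried 2L (24.4%, against 20.3% of all tested), 42 carried 2R (23.3% against 26.3%), 37 carried 3L (20.6% against 14.8%), 35 carried 3R (19.4% against 18.8%) and 18 carried X (10% against 8.31%). The field UNKN was on 4 (2.22%), against 11.5% of all tested. CDS was in the ID of 156 (86.7% against 83.3%) and UTR in that of 6 (3.33% against 4.68%). These shares are a description, since probe sets that share a number are not independent.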

How the data were processed

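RNA of 4 gut sections and whole larvae was measured on 15 one-colour oligonucleotide arrays. The authors deposited 1 log2 value per probe set and array. RMA is the tool that the submitters' processing notes name, without a version, and the range of the values fits its log2 scale. The table holds 22761 probe sets; the 16884 with IDs starting with Ag were tested. An array gives no counting depth, and the number of arrays limits precision.

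Groups came from the sample titles. All 15 arrays and 16884 probe sets entered 1 linear model with 5 group means in limma 3.58.1 (R 4.3.3, lmFit and eBayes), with Benjamini-Hochberg adjustment per contrast. Calls needed an adjusted p below 0.05 together with a change of at least 2-fold. The deposited table was not filtered on low values, so all 180 probe sets were tested. The members, classes and comparisons were chosen with earlier results of these data known. IDs printed are the 2 with the largest called difference in each direction per comparison, the 2 with the widest lead whose caeca arrays all exceed the other section arrays, and the 2 nearest to the threshold on each side.

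Same-numbered arrays were checked for pairing by correlating their deviations from group means over probe sets. All 3 correlations were above 0.1 for caeca with whole larvae (0.268 to 0.35). At least 1 was below in posterior with anterior midgut (-0.344 to 0.262), hindgut with anterior midgut (-0.276 to -0.0903) and hindgut with posterior midgut (-0.18 to 0.101). By that limit only caeca with whole larvae counted as paired. The main fit still held no term for the replicate number (the replicate block). With the block, caeca against whole larvae gave 112 higher and 17 lower, against 111 and 12 without it. Alternatives were quantile normalization, median centring, the replicate block, array weights (limma's gene-by-gene method), 2-group fits, the methods' t-test with equal variances, a filter on dim probe sets, other thresholds and leaving out each array.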

Additional observations from a re-analysis of the deposited data

Results flagged for a closer look

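One probe set outside the tested set met the same rule. Pf.7.226.0_CDS_s_at, of the 4506 IDs starting with Pf, read 5.17, 4.96 and 5.45 in caeca, against 3.97, 3.77 and 4.01 in whole larvae, and led the posterior midgut, its second section, by 1.16 log2 units. All 3 caeca arrays lay above every other array. The caeca mean of 5.19 was below the number-led background of 5.36, as were all other groups, so these levels are dim. None of the other 1371 IDs that start with neither Ag nor Pf met the rule. It is given here because no comparison above uses it and its signal was higher in caeca than in whole larvae.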

How the results depend on the processing

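The count of 180 was 115 at a gap of at least 1.5 log2 and 82 at 2 log2, was 178 to 185 with medians, quantile normalization, median centring or the Pf background, and was 171 to 220 when each gut array was left out. Of the 180, 164 were chosen again after quantile normalization and 174 after median centring. With the replicate block, caeca against whole larvae gave 112 higher and 17 lower, posterior against anterior midgut 14 and 3, hindgut against anterior midgut 13 and 16, and hindgut against posterior midgut 12 and 10, each within 1.5 times the count without it. Of the 16 named differences, 12 lost their call by the methods' t-test after Benjamini-Hochberg adjustment, 3 in fits of only the 2 groups compared, 2 by the unadjusted t-test, 2 after quantile normalization, 1 after median centring and 0 under the replicate block. Leaving out 1 array gave 96 to 107 higher and 4 to 24 lower in caeca against whole larvae, 9 to 20 and 0 to 5 in posterior against anterior midgut, 6 to 21 and 9 to 17 in hindgut against anterior midgut, and 3 to 8 and 7 to 11 in hindgut against posterior midgut. The methods' t-test at its unadjusted threshold gave 106 higher and 12 lower in caeca against whole larvae, 15 and 7 in posterior against anterior midgut, 13 and 9 in hindgut against anterior midgut, and 18 and 11 in hindgut against posterior midgut. After Benjamini-Hochberg adjustment it gave 28 and 0, 0 and 0, 5 and 4, and 7 and 4, in the same order. Quantile normalization changed the counts by more than 1.5 times in posterior against anterior midgut (7 lower), hindgut against anterior midgut (5 higher) and hindgut against posterior midgut (3 higher, 17 lower). Array weights gave 20 higher and 8 lower in posterior against anterior midgut, 34 higher in hindgut against anterior midgut and 17 higher in hindgut against posterior midgut. Fits of only the 2 groups compared gave 3 lower in caeca against whole larvae, 8 lower in hindgut against anterior midgut and 19 higher in hindgut against posterior midgut. The cause of these changes was not tested. The 50 with whole larvae above caeca numbered 49 to 52 under other scalings or medians and 43 to 54 without 1 array, and 36 to 41 of the 50 were lowest on array 1 of both groups under these scalings, alternatives chosen after seeing the data. Signal over background limits the folds of probe sets whose lower group is dim.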
